A study of Bos taurus with 6 samples.

Results

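Transcripts of 8 chaperones of the endoplasmic reticulum, grouped around HSPA5, were followed in bovine blastocysts that differed in survival after vitrification. The members were taken by gene symbol from the deposited table (HSPA5, HSP90B1, HYOU1, PDIA4, PDIA3, PDIA6, CALR and CANX), and all 8 had a row among its 9537 genes. The set was drawn up with the difference between the 2 groups in these libraries already known. The members' values in that comparison are therefore given as a description, and no test of a member supports them.

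The endoplasmic reticulum folds secreted and membrane proteins. HSPA5, also called BiP or GRP78, is its HSP70 chaperone; it binds unfolded chains and holds the stress sensors of this compartment inactive until unfolded protein draws it away from them. The sensors then start the unfolded protein response, which raises transcription of chaperones, oxidoreductases and degradation factors. HSP90B1 (GRP94) and HYOU1 (GRP170) work next to HSPA5, the PDIA enzymes form and exchange disulfide bonds, and CALR and CANX hold glycoproteins through their sugar chains. The blastocyst is an embryo with an outer epithelium, the trophectoderm, that pumps fluid into a cavity, and an inner cell mass.

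The embryos were Bos taurus blastocysts produced in vitro and grown in SOFaaci, a standard culture medium for such embryos. One group was labelled high cryosurvival after vitrification (titles HC and V) and the other low cryosurvival (titles LC and NV), with 3 libraries of total RNA each. Vitrification is ice-free rapid freezing. The labels name no strain, no embryo age and no number of embryos per library, do not say whether RNA was taken before or after freezing, and do not explain the V and NV codes. Nor do they tell if separate cultures were behind the libraries within each group, so any p-value rests on the spread over these 6 samples, part of which could be technical.

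The reads in the table came to between 14651477 and 19467022 per library. Levels are in CPM, read counts brought to a common library size that the authors had scaled. Trophectoderm markers had a row for 9 of 11 genes, with KRT8 between 15394 and 21785 CPM, and the epiblast marker POU5F1 lay between 606 and 929 CPM. Markers of cumulus and granulosa cells, which surround the oocyte, had a row for 4 of 10 genes and summed to between 40.2 and 48.4 CPM. Oocyte markers had a row for 2 of 8 and summed to between 5.74 and 19.4 CPM, with the highest sum in low library 2. That library stood apart. It was the highest or the lowest of the 3 low libraries for 43.8% and 46.3% of all genes, and the median log2(CPM + 1) of 76 cytosolic ribosomal protein genes was 10.62 in it, against 9.66 and 9.78 in low libraries 1 and 3 and 9.85 to 10.16 in the high libraries. All 9 measured trophectoderm markers had a log2 difference below 0, low minus high, with a median of -0.25 (-0.36 without low library 2). Without that library limma called 1 of the 9 lower in low, GATA2, beside 5.48% of all genes. Epiblast markers had a row for 7 of 9 genes, 4 positive and 3 negative, with a median of 0.004 (0.30 without low library 2). Among them NANOG was lower in every low library, at 47.3, 31.1 and 37.6 CPM in high libraries 1 to 3 and 22.1, 12.2 and 14.3 CPM in low libraries 1 to 3, a log2 difference of -1.23 ± 0.25. The authors' deposited table called it lower, 1 of the 7 epiblast markers, beside 0.283% of all genes. In the other 6 the groups overlapped, with log2 differences from -0.46 (DPPA3) to 0.38 (LIN28A). Without low library 2 limma called 1 of the 7 higher in low, LIN28A at 0.96, beside 8.15% of all genes. It called 2 lower, NANOG at -1.06 and DPPA3 at -0.69, beside 5.48%. Hypoblast markers had a row for 8 of 10 genes, 5 of them positive, with a median of 0.33 (0.29 without low library 2). In GATA4 the low libraries lay above the high ones. COL4A1 and LAMB1 overlapped through low library 2, with log2 differences of 0.51 and 0.57. Without that library limma called both higher in low, at 0.88 and 0.91, so 2 of the 8, beside 8.15% of all genes. The part of these marker lists in the chaperone differences was not tested, and in bulk samples fewer cells of a type and less RNA per cell cannot be told apart.

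HSPA5 was higher in every low cryosurvival library than in any high one. It was at 1128, 1080.2 and 1089 CPM in high libraries 1, 2 and 3, and at 1879, 1929 and 1808 CPM in low libraries 1, 2 and 3. The lowest low library was 60.3% above the highest high one, the widest gap among the 8 members. The group means were 1872 ± 60.4 CPM in low and 1099 ± 25.5 CPM in high (SD, n = 3 each), a ratio of 1.70. The log2 difference was 0.77 ± 0.11 (limma estimate ± SE), and leaving out any 1 library kept it between 0.75 and 0.79.

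HSP90B1, the HSP90 of the endoplasmic reticulum, followed the same order. Its levels were 1286, 1303 and 1210.2 CPM in high libraries 1 to 3 and 1938, 1805 and 1866 CPM in low libraries 1 to 3. The groups were apart by 38.5%, measured from the highest high to the lowest low library. The mean level of 1869.9 ± 66.6 CPM in low compared with 1267 ± 49.6 CPM in high, with a log2 difference of 0.56 ± 0.11. Low library 2 lay with the other low libraries for both HSPA5 and HSP90B1.

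HYOU1, a large HSP70 relative that exchanges nucleotide on HSPA5, had the largest log2 difference of the set and also the widest spread. High libraries 1 to 3 were at 399, 423 and 361 CPM. Low libraries 1 and 3 were at 797 and 781 CPM, while low library 2 was at 489 CPM, 15.7% above the highest high library. The groups did not overlap, but the coefficient of variation in the low group was 25.2%, against 7.89% in the high group. The log2 difference was 0.77 ± 0.21, and 1.002 ± 0.10 without low library 2.

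PDIA4 (ERp72), a protein disulfide isomerase found in complexes with HSPA5 and HSP90B1, had the same shape at a lower amplitude. It was at 302, 316 and 268 CPM in high libraries 1 to 3 and at 512, 378 and 485 CPM in low libraries 1 to 3. Low library 2 was again the lowest of its group and still above every high library. The means of 458 ± 70.7 CPM (low) and 296 ± 24.7 CPM (high) gave a ratio of 1.55. Its log2 difference was 0.62 ± 0.16, and 0.75 without low library 2.

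The other disulfide isomerases differed less. PDIA6 was at 867, 875 and 805 CPM in high libraries 1 to 3 and at 1058, 1167 and 1005 CPM in low libraries 1 to 3. PDIA3 (ERp57), which works on glycoproteins held by CALR and CANX, was at 1037, 1059 and 1059.7 CPM in the high and at 1137, 1222 and 1106 CPM in the low libraries. Both had the 3 low libraries above the 3 high ones, and both were highest in low library 2. For PDIA3 the gap between the groups was only 4.34%, and its log2 difference of 0.13 ± 0.11 was little more than its SE. For PDIA6 the log2 difference was 0.34 ± 0.12, with means of 1077 ± 82.7 CPM in low and 849 ± 38.0 CPM in high.

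Among the lectin chaperones, CALR and CANX parted. CALR, the soluble one, was at 1435, 1529 and 1263 CPM in high libraries 1 to 3 and at 1768, 2027 and 1728 CPM in low libraries 1 to 3. Its groups did not overlap, and the log2 difference was 0.39 ± 0.13. CANX, the membrane-bound one, was at 998, 1008 and 918 CPM in the high and at 1173, 977 and 1140.3 CPM in the low libraries. It was the only member whose groups overlapped, through low library 2, and its log2 difference of 0.17 ± 0.13 became 0.25 without that library. The ratio of CALR to CANX within a library was 1.38 to 1.52 in the high libraries, 1.51 and 1.52 in low libraries 1 and 3 and 2.07 in low library 2.

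**Figure D1:**
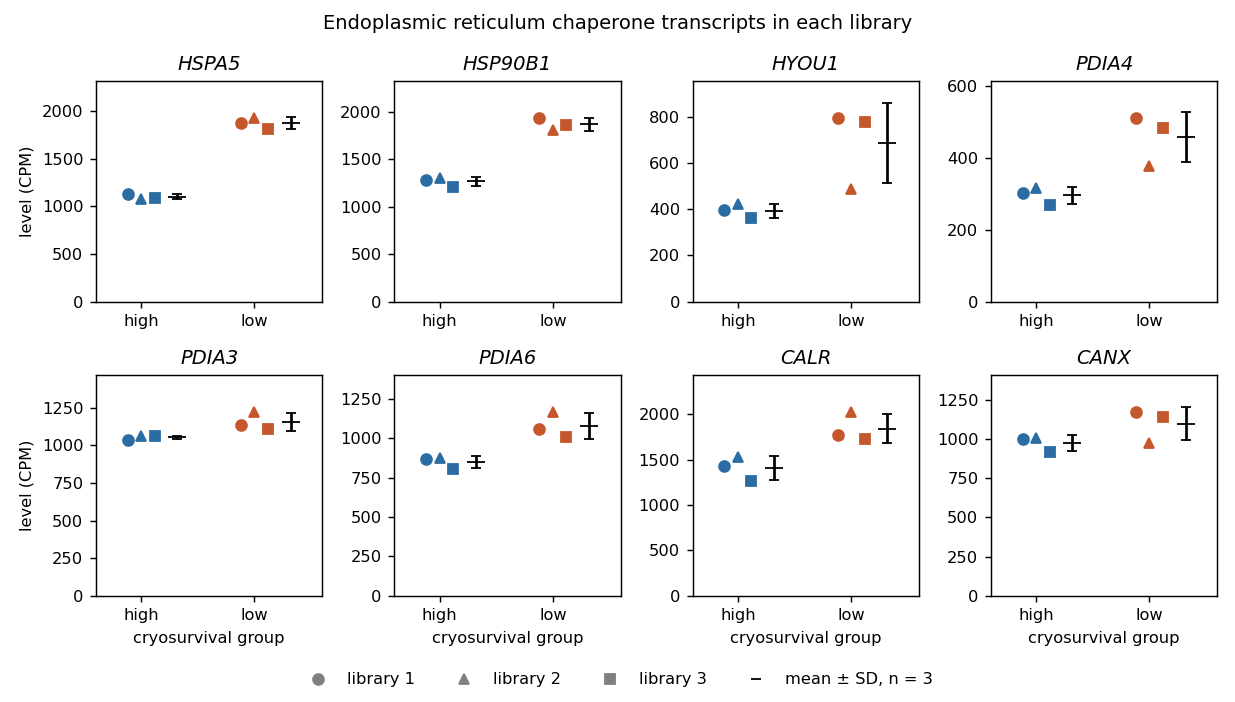
Level in CPM (vertical axes, from 0) of each of the 8 chaperone transcripts in the high and low cryosurvival groups; each symbol is 1 library and the black bars are mean ± SD, n = 3. HSPA5 and HSP90B1 form compact, separate groups, whereas low library 2 (triangle) drops to 489 CPM in HYOU1 and into the range of the high libraries in CANX.

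As a set, all 8 members had a positive log2 difference, as had 50% of all genes; the values ran from 0.13 for PDIA3 to 0.77 for HYOU1, with a median of 0.47 against 0.0002 over all 9537 genes. In 7 of the 8 the low libraries lay above the high ones, a pattern held by 10.4% of all genes. Limma, the test across all genes, called 0 of the 8 at an adjusted p below 0.05, as it called 0% of all genes, and so did voom on the recovered reads. At an unadjusted p below 0.05 limma had 6 members higher and 0 lower in low, beside 6.27% and 5.7% of all genes. In the authors' deposited table HSPA5 and HYOU1, so 2 of the 8, had an adjusted p below 0.05 and were higher in low, beside 0.912% of all genes. Without low library 2 limma called 4 members higher in low (HSPA5, HSP90B1, HYOU1 and PDIA4), beside 8.15% of all genes. The members were chosen on this contrast, so nothing is read from these counts. Between 4837 and 38825 reads lay behind each member's value in a library, which puts counting error at 1.44% or less, on the assumption of independent reads; the coefficients of variation within a group were 1.21% to 25.2%.

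The 8 transcripts summed to 7452, 7593 and 6974 CPM in high libraries 1 to 3 and to 10262, 9995 and 9919 CPM in low libraries 1 to 3. Low library 2 did not stand apart in this sum. Its lower HYOU1, HSP90B1, PDIA4 and CANX values were met by higher HSPA5, CALR, PDIA3 and PDIA6 values. As a share of all reads in the table, the sum was 0.706% to 0.763% in the high libraries, 1.06% and 1.03% in low libraries 1 and 3 and 0.908% in low library 2.

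The make-up of the set also differed between the groups, as ratios within a library show without any scaling between libraries. HSPA5 made up 14.2% to 15.6% of the summed CPM of the set in the high libraries and 18.2% to 19.3% in the low libraries. The ratio of HSPA5 to PDIA3 was 1.09, 1.02 and 1.03 in high libraries 1 to 3 and 1.65, 1.58 and 1.64 in low libraries 1 to 3, so the group ratio was not the same for these 2 members. Its ratios to HSP90B1, PDIA6, CALR and CANX were also higher in each low library than in any high one, by 1.15 to 1.52 times on the group means. Against HYOU1 and PDIA4 the groups overlapped: HSPA5 over HYOU1 was 2.56 to 3.02 in the high libraries, 2.36 and 2.32 in low libraries 1 and 3 and 3.95 in low library 2. The members thus differed in their low to high ratio, with HYOU1, HSPA5, PDIA4 and HSP90B1 at 1.75, 1.70, 1.55 and 1.48 and CALR, PDIA6, CANX and PDIA3 at 1.31, 1.27, 1.13 and 1.10. The log2 differences of HYOU1, HSPA5 and PDIA4 lay within the SE of the PDIA4 value of one another, and those of CANX and PDIA3 within the SE of either.

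**Figure D2:**
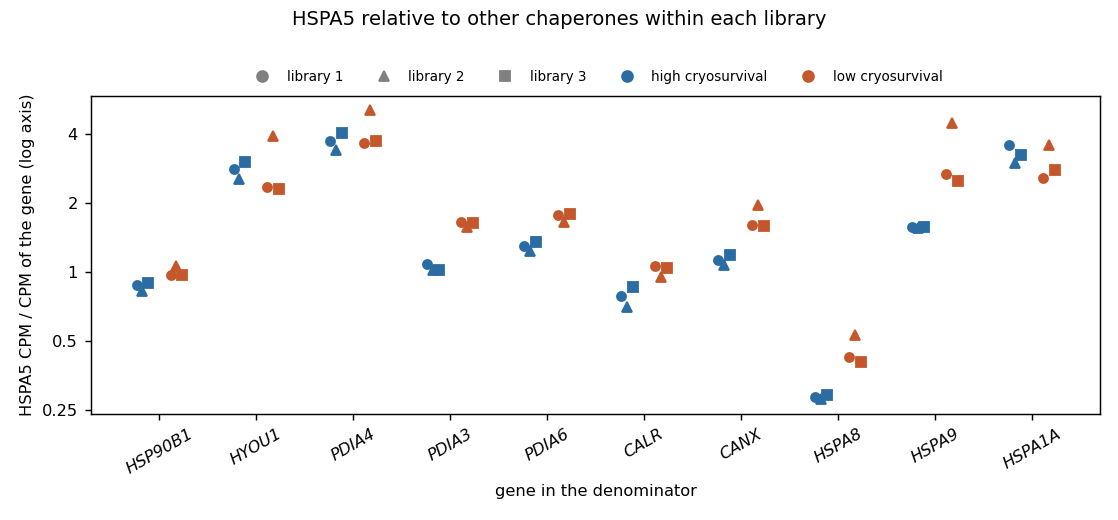
CPM of HSPA5 divided by the CPM of another chaperone in the same library (log axis), for the 7 other members and for HSPA8, HSPA9 and HSPA1A; each symbol is 1 library. The low libraries sit above the high ones for PDIA3 (1.58 to 1.65 against 1.02 to 1.09) and overlap them for HYOU1, PDIA4 and HSPA1A; CPM is not per length, so heights are to be compared within a denominator only.

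Low library 2 split the set evenly, being the highest low library in HSPA5, PDIA3, PDIA6 and CALR and the lowest in HSP90B1, HYOU1, PDIA4 and CANX. Against the mean of low libraries 1 and 3 its log2(CPM + 1) was 0.69 lower for HYOU1 (a difference of -0.69), and the difference was -0.40 for PDIA4 and -0.24 for CANX. The same difference was 0.21 for CALR, 0.18 for PDIA6 and 0.12 for PDIA3. HSPA5 and HSP90B1 were close to 0, at 0.07 and -0.08. Other genes of the endoplasmic reticulum moved further in this library: MANF reached 494 CPM there, with 234 and 272 CPM in the other low libraries, and the HSPA5 partner SDF2L1 reached 306 CPM, with 125 and 132 CPM in the others. In the other direction CALU was at 34.1 CPM there and at 99.8 and 104 CPM in the others, and EDEM1 at 50.2 CPM with 120.1 and 101 CPM in the others. SDF2L1 was named after its values were seen. The part of the ribosomal protein level in this split was not tested.

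**Figure D3:**
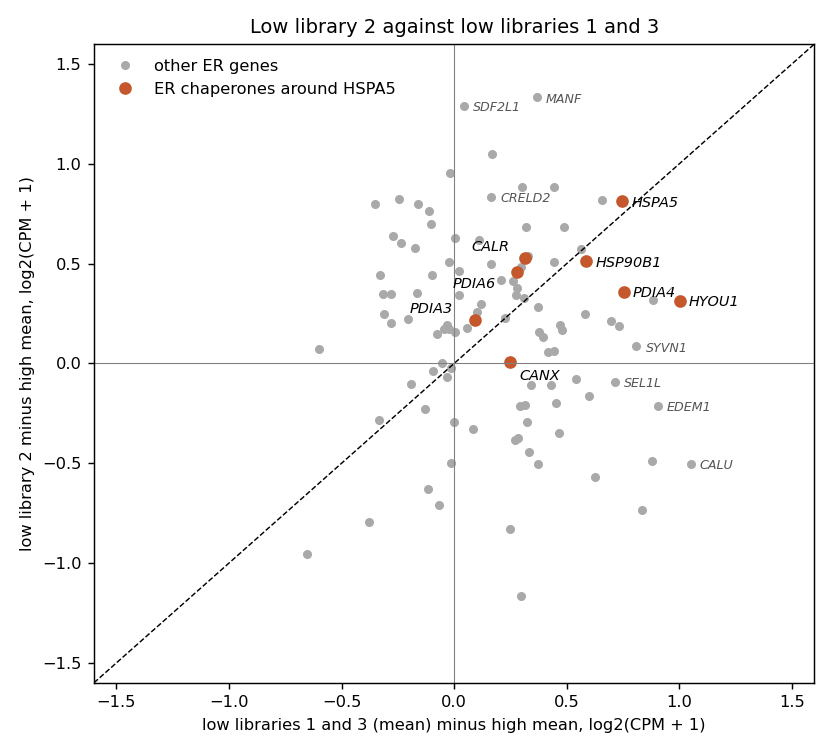
Each point is a gene, placed by the log2(CPM + 1) of low libraries 1 and 3 (mean, horizontal axis) and of low library 2 (vertical axis), both minus the mean of the high libraries; the dashed line marks equal values. HSPA5 and HSP90B1 lie near the line, HYOU1 is at 1.002 against 0.31, and MANF and SDF2L1 lie far above it; SDF2L1, SEL1L and CRELD2 are labelled as examples.

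The sensors and regulators of the unfolded protein response differed in both directions. The sensors ERN1 (IRE1) and ATF6 had no row. Of 17 listed genes 12 had a row, 9 with a positive and 3 with a negative log2 difference (median 0.29, and 0.12 without low library 1). By limma 0 of the 12 were called, and voom called 0. At an unadjusted p below 0.05 limma had 2 higher and 1 lower in low, beside 6.27% and 5.7% of all genes. The authors' deposited table had 1 gene of this list with an adjusted p below 0.05, beside 0.912% of all genes higher in low. This was PPP1R15A (GADD34), a phosphatase subunit that restores translation after stress. It was at 49.1, 45.3 and 53.2 CPM in high libraries 1 to 3 and at 78.3, 87.5 and 77.5 CPM in low libraries 1 to 3, a log2 difference of 0.71 ± 0.12 (limma adjusted p = 0.142). The groups did not overlap, as for HSPA5, and low library 2 was the highest of the low libraries.

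XBP1, whose mRNA is spliced by the sensor IRE1 into the form that encodes an active factor, was at 184, 197 and 185 CPM in the high and at 219, 253 and 217 CPM in the low libraries. Its groups did not overlap, and the log2 difference was 0.28 ± 0.12 (limma adjusted p = 0.437). Gene totals do not separate the spliced from the unspliced form. DDIT3 (CHOP), a factor tied to cell death in prolonged stress, was at 35.9, 38.8 and 46.7 CPM against 50.6, 49.2 and 54.2 CPM. ATF4, which drives the amino acid branch of the stress response, went the other way: 786, 787 and 788 CPM in the high libraries and 721, 733 and 660.0 CPM in the low ones. The groups of DDIT3 and of ATF4 did not overlap, with log2 differences of 0.34 ± 0.14 and -0.16 ± 0.11. ATF6B, a membrane-tethered relative of the sensor ATF6, was also lower in low, with means of 42.8 ± 8.25 CPM there and 61.0 ± 0.475 CPM in the high libraries (SD, n = 3 each).

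The remaining genes of this list overlapped between the groups. EIF2AK3 (PERK), a sensor kinase, was at 32.7 to 34.5 CPM in the high libraries, at 50.6 and 42.0 CPM in low libraries 1 and 3 and at 29.1 CPM in low library 2. TRIB3, CREB3L1 and CREB3L2 had the same form, with low libraries 1 and 3 above and low library 2 within or below the high range. Without low library 2 limma called these 4 and PPP1R15A higher in low, 5 of 12, beside 8.15% of all genes. MBTPS2 had a log2 difference of 0.40 ± 0.17, and MBTPS1 and CREB3 had 0.06 ± 0.20 and -0.06 ± 0.17, and 0.28 and -0.20 without low library 2.

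Over 6 further groups of endoplasmic reticulum genes, this list included, 99 of 115 listed genes had a row, 75 with a positive and 24 with a negative log2 difference and a median of 0.17. Limma called 0 of the 99 and voom called 0 in each group, and at an unadjusted p below 0.05 limma had 19 higher and 3 lower in low, beside 6.27% and 5.7% of all genes. The low libraries lay above the high ones for 25 of the 99 genes, or 25.3%, beside 10.4% of all genes, and below them for 6, beside 10.6%. Without low library 2 limma called 25 higher and 0 lower, beside 8.15% and 5.48% of all genes.

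The list of HSPA5 cofactors and partners had 12 of 16 measured genes positive. Its median log2 difference was 0.27, and 0.13 without low library 2. The low libraries lay above the high ones in 6 of the 16, beside 10.4% of all genes. The J-domain proteins DNAJB9, DNAJB11, DNAJC3 and DNAJC10 stimulate the ATPase of HSPA5, and in each the 3 low libraries lay above the 3 high ones. DNAJC10 was at 104, 106 and 97.8 CPM in high libraries 1 to 3 and at 148, 153 and 156 CPM in low libraries 1 to 3, with a log2 difference of 0.57 ± 0.11 (limma adjusted p = 0.164, and 0.0198 without low library 2). SEC63, a further J-domain protein that brings HSPA5 to the translocation channel, overlapped between the groups through low library 2 at 172 CPM, with a log2 difference of 0.31 ± 0.16. MANF, a secreted factor retained by HSPA5, had a larger log2 difference, 0.69 ± 0.27, which was 0.37 without low library 2. CRELD2 averaged 287 ± 82.2 CPM in low, over 214 ± 15.6 CPM in high, again highest in low library 2 at 382 CPM, with a log2 difference of 0.39 that was 0.16 without that library. CNPY4 had the lowest value, a log2 difference of -0.16 ± 0.12.

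Among the other thiol oxidoreductases, 12 of 17 were positive, with a median log2 difference of 0.12. PDIA5, a further protein disulfide isomerase, was at 57.2, 59.1 and 61.2 CPM in high libraries 1 to 3 and at 81.6, 109.9 and 79.8 CPM in low libraries 1 to 3 (limma adjusted p = 0.225, and 0.0289 without low library 2). TMX4, a membrane-bound relative, averaged 29.3 ± 6.30 CPM in low, over 19.4 ± 1.72 CPM in high, with groups that did not overlap, and limma called it higher without low library 2. P4HB, the classical protein disulfide isomerase, differed by less than its spread, averaging 1272 ± 240 CPM in low, over 1154 ± 95.6 CPM in high, a log2 difference of 0.12 that was 0.29 without low library 2. TMX2 and TXNDC16 had log2 differences of -0.04 ± 0.11 and -0.28 ± 0.21, the latter -0.07 without low library 2. Without that library the median of this group was 0.25, and limma called 4 of the 17 higher in low, beside 8.15% of all genes.

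Genes of glycoprotein folding and the lectins had 11 of 14 positive values and a median of 0.14. The glucosidase II subunits GANAB and PRKCSH, which trim the sugar chains that CALR and CANX read, had log2 differences of 0.07 ± 0.23 and -0.04 ± 0.12, the former 0.33 without low library 2. EDEM1, which directs misfolded glycoproteins to degradation, and CALU, a calcium-binding protein, had 0.53 ± 0.34 and 0.53 ± 0.43, and 0.90 and 1.05 without low library 2, where limma called both. Without that library 4 of the 14 were called higher in low, beside 8.15% of all genes. RCN2, a calcium-binding relative of CALU, had a log2 difference of -0.13 ± 0.19, and -0.31 without it.

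The degradation machinery had 18 of 24 positive values, with a median of 0.17. HERPUD1, which assembles the ubiquitin ligase complex of the membrane, was at 66.1, 69.1 and 63.1 CPM in high libraries 1 to 3 and at 107, 76.8 and 108 CPM in low libraries 1 to 3. The ubiquitin ligase SYVN1 (HRD1) averaged 96.2 ± 26.4 CPM in low, over 62.9 ± 3.98 CPM in high. For both genes the groups did not overlap and low library 2 was the lowest of its group, as for HYOU1 and PDIA4. By limma the adjusted p was 0.275 for HERPUD1 and 0.373 for SYVN1, and 0.0158 for each without low library 2. VCP, the ATPase that pulls proteins from the membrane, had a log2 difference of 0.19 ± 0.16, which was 0.34 and called by limma (adjusted p = 0.0435) without low library 2, and AUP1 had -0.32 ± 0.12. Without that library limma called 5 of the 24 higher in low, beside 8.15% of all genes.

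Retrieval receptors and prolyl isomerases had 13 of 16 positive values and a median of 0.15, which was 0.01 without low library 2. KDELR3, a receptor that returns proteins such as HSPA5 from the Golgi, averaged 73.6 ± 8.95 CPM in low, over 56.4 ± 2.52 CPM in high, without overlap, and KDELR2 had a log2 difference of 0.17 ± 0.16, which was 0.02 without low library 2. SERPINH1 (HSP47), a collagen chaperone, was at 19.5, 14.4 and 15.5 CPM in the high and at 24.9, 20.6 and 38.4 CPM in the low libraries. Without low library 2 limma called SERPINH1 and KDELR3 higher, 2 of the 16, beside 8.15% of all genes. PPIB, a cyclophilin that binds PDI-family enzymes, had a log2 difference of 0.16 ± 0.24, which was -0.10 without low library 2, and FKBP9 had -0.19 ± 0.40, which was 0.30 without it. PPIC had the lowest value of the group, -0.75 ± 0.19, with means of 6.48 ± 1.65 CPM in low and 11.5 ± 1.56 CPM in the high libraries, and was named after its values were seen as its mean falls below the minimum for naming.

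**Figure D4:**
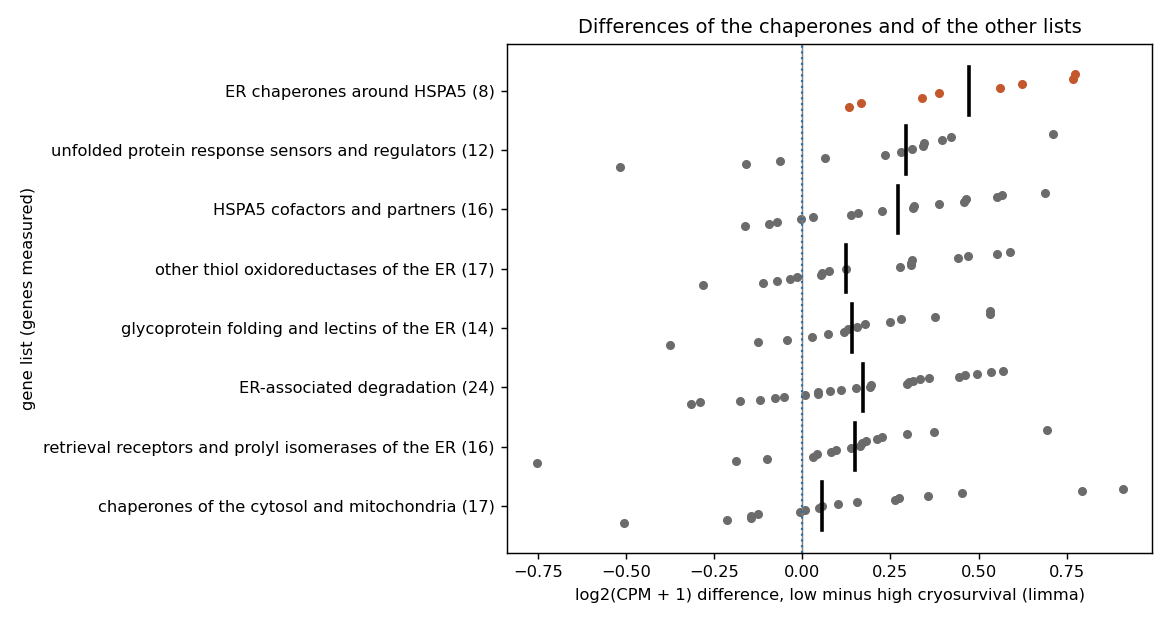
Log2(CPM + 1) difference, low minus high cryosurvival, of each gene in the chaperone set (orange) and in 7 other lists (grey), with black bars at the list medians and a blue dotted line at the median of all genes, 0.0002. The chaperone set lies wholly above 0 with a median of 0.47, and the other medians lie between 0.06 and 0.29.

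Chaperones of the cytosol and mitochondria had 11 of 17 positive values and a median log2 difference of 0.06. This list held the HSP70 and HSP90 relatives of HSPA5, HYOU1 and HSP90B1, along with other chaperones. The low libraries lay above the high ones in 6 of the 17, beside 10.4% of all genes. They lay below them in 1, beside 10.6%. HSPA8, the constitutive HSP70 of the cytosol, was at 3945, 3880.0 and 3743 CPM in high libraries 1 to 3 and at 4387, 3632 and 4441 CPM in low libraries 1 to 3, with overlap and a log2 difference of 0.10 that was 0.20 without low library 2. Within a library HSPA5 over HSPA8 was 0.286, 0.278 and 0.291 in the high and 0.428, 0.531 and 0.407 in the low libraries. HSPA5 over HSPA9, the mitochondrial HSP70, was 1.56 to 1.58 in the high libraries, 2.68 and 2.50 in low libraries 1 and 3 and 4.48 in low library 2, where HSPA9 was at 430.4 CPM. HSPA9 was named as the denominator of that ratio.

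HSP90B1 over the cytosolic HSP90AB1 overlapped between the groups, at 0.460 to 0.544 in the high libraries and 0.505 to 0.695 in the low ones. Over HSP90AA1, the inducible cytosolic HSP90, it did not overlap, at 0.482 to 0.510 in the high and 0.563 to 0.729 in the low libraries. The stress-inducible HSPA1A averaged 637 ± 98.0 CPM in low, over 336 ± 23.3 CPM in high, and HSPA5 over HSPA1A overlapped, at 2.99 to 3.59 in the high and 2.58 to 3.61 in the low libraries; its near-identical copy may share its reads. BAG3, a cofactor of cytosolic HSP70, and HSPA2 had log2 differences of 0.79 ± 0.17 and -0.51 ± 0.15. Without low library 2 limma called 3 of the 17 higher in low, HSPA1A and BAG3 among them, beside 8.15% of all genes. In that setting it called 1 lower, HSPA2, beside 5.48% of all genes. In the authors' deposited table HSPA1A and BAG3 were the 2 genes of this list with an adjusted p below 0.05. Both were higher in low, as were 0.912% of all genes at that threshold. The differences between HSPA5 and these genes were not tested, because HSPA5 was chosen on the same contrast.

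The genes whose log2(CPM + 1) followed HSPA5 most closely over the 6 libraries, among 7096 genes with a mean of at least 10 CPM, were the transcription factor MEF2D (Pearson r = 0.9987), ITM2C (0.9982), the p53 target CDKN1A (0.9976), STK35 (0.9963) and CTGF (0.9958). In all 5 the low libraries lay above the high ones, as in HSPA5 and in 10.4% of all genes. That order alone gives a high r, and no p is given. MEF2D was at 41.9, 41.7 and 41.0 CPM in the high and at 57.2, 58.8 and 56.2 CPM in the low libraries, and low library 2 was within its group. Among the members, HSP90B1 ranked 13th of these genes by likeness to HSPA5 (r = 0.982), PDIA6 87th (0.940) and CANX 910th (0.640). By deviations from the group means, which leave out the difference between groups, the nearest genes were IGFBP4, CCL24, NARS2, SSLP1 and FAM109B (r = 0.963 to 0.9997). All 5 overlapped between the groups, as did 7532 of all 9537 genes. By the same measure the r of the members with HSPA5 was 0.75 for PDIA6, 0.61 for PDIA3 and 0.48 for CALR. It was -0.12 for HSP90B1, which ranked 3825th, -0.45 for CANX, -0.48 for PDIA4 and -0.62 for HYOU1.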

How the data were processed

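Gene levels were read from the authors' deposited table, in CPM with decimal commas; no header states the unit, which was worked out from the values. Below 1000 CPM each value was a whole multiple of 1 step per library, within 0.05 read and the rounding of the third decimal, for 100% of values, so whole reads were recovered. The submitters' processing notes list DESeq 1.12.1, HTSeq 0.5.4p2, TopHat2 2.0.8, Cufflinks 2.1.1, Bowtie2 2.1.0 and SAMtools 0.1.18 without roles. For build, annotation, strand use and any filter, nothing is given in the sources used here. Coordinates are therefore left out, overlapping and antisense genes were not told apart, and sequences were not used. The sign of the authors' log2 fold, high over low, was reversed.

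Low and high cryosurvival were compared in R 4.3.3 with limma 3.58.1 on log2(CPM + 1) over all 9537 genes and 6 libraries, without covariate, with Benjamini-Hochberg adjustment at 0.05; the script was tested on simulated data. An exact test of 3 against 3 libraries cannot go below p = 0.1, so none was made. The alternatives were other pseudocounts, filters and scalings, a replicate block, voom on recovered reads and leaving out each library. Members and lists were chosen with earlier results of these data known; the lists came from general knowledge of the pathway. Named genes were all members and all measured sensors. Of each other list they were the 2 highest in CPM, the 2 most positive and the 1 most negative with a mean of at least 10 CPM, and those called by limma or the authors, plus the 5 nearest to HSPA5 by each measure. J-domain partners are named as a family.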

Additional observations from a re-analysis of the deposited data

How the results depend on the processing

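Each member kept a positive log2 difference under all 13 alternatives, with ranges of 0.74 to 0.79 for HSPA5, 0.65 to 1.002 for HYOU1 and 0.09 to 0.16 for PDIA3. The median of the members was between 0.42 and 0.52 with each library left out. The number of genes called by limma was 0, and 7 with a pseudocount of 0.1, with a minimum mean of 5 CPM and with median centring. With single libraries removed it ran from 0 to 1300, the 1300 being without low library 2, and members were called only there. Of the 58 named genes, 27 passed the threshold without that library, and CDKN1A alone with the minimum of 5 CPM. Without that library 8.15% of all genes were called higher and 5.48% lower. Many genes were named for large differences in this contrast, so nothing is read from the 27. With each library left out, list medians ranged from 0.13 to 0.28 for the HSPA5 partners, 0.12 to 0.25 for the other oxidoreductases, 0.12 to 0.35 for the sensors, 0.012 to 0.21 for retrieval receptors and prolyl isomerases, and 0.037 to 0.13 for cytosolic and mitochondrial chaperones. The last was 0.029 with values scaled to the table sum and 0.028 with voom; the cause was not tested. Differences that changed sign, none of them called, ranged from -0.070 to 0.28 for MBTPS1, -0.20 to 0.041 for CREB3, -0.12 to 0.00022 for PRKCSH, -0.074 to 0.33 for GANAB, -0.31 to 0.021 for RCN2, -0.10 to 0.30 for PPIB, -0.51 to 0.30 for FKBP9, -0.36 to 0.082 for IGFBP4, -0.25 to 0.040 for CCL24 and -0.64 to 0.12 for SSLP1. Same-numbered libraries of the 2 groups had correlations of deviations of 0.12, -0.26 and -0.31, and differently numbered ones ran from -0.36 to 0.37. The labels do not say whether the numbers pair libraries. These correlations cannot decide it, because the deviations within a group of 3 depend on one another. With a replicate block limma called 0 genes and the members' median stayed at 0.47. TMM scaling was not run, nor was edgeR, which was planned only for a table of raw counts. Voom on the recovered reads, scaled by library sums alone, was an added alternative. Depth does not limit the members' values, each resting on at least 4837 reads.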
